A study of Mus musculus with 6 samples.

Results

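The carnitine shuttle is the set of enzymes and carriers that moves fatty acyl groups across membranes bound to carnitine. It was followed through 8 genes, Slc22a5, Cpt1a, Cpt1b, Cpt1c, Slc25a20, Cpt2, Crat and Crot, taken by gene symbol from the 56691 genes of the deposited table, and all 8 were present. Bulk RNA-seq gave their transcript levels in inguinal white adipose tissue, a subcutaneous fat depot of the groin, from 6 adult C57BL/6J males, an inbred strain. The animals entered at 8 weeks of age and then lived for 8 weeks either in cages of 4 to 6 (group housing, n = 3) or alone, 1 to a cage (single housing, n = 3). Temperature and lighting were described as normal for all, no transgene or drug was named, and each mouse gave 1 library. The sources do not state whether littermates or cage mates were used, so the p-values measure the spread between these 6 libraries only.

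Long-chain fatty acids enter the mitochondrial matrix only as carnitine esters. Slc22a5 brings carnitine into the cell, a carnitine palmitoyltransferase 1 (CPT1) on the outer mitochondrial membrane forms the acylcarnitine, Slc25a20 exchanges it for free carnitine across the inner membrane, and Cpt2 returns the acyl group to coenzyme A for beta-oxidation. CPT1 exists as separate genes: Cpt1a is the liver form, which many tissues including fat express, Cpt1b is that of skeletal muscle, heart and brown fat, and Cpt1c that of brain, and malonyl-CoA inhibits the first step. Crat, the carnitine acetyltransferase, and Crot, the octanoyltransferase of peroxisomes, act on short-chain and medium-chain acyl groups.

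Libraries held between 21410779 and 35318376 counts assigned to genes, and the members drew from 95 counts (Cpt1c) upwards. Of 12 white adipocyte markers all were detected in every library, with summed levels of 6855 to 12907 FPKM under group housing and 8454 to 11351 FPKM under single housing. FPKM is the count scaled by a gene's exon length and by the library's total, so it allows levels of different genes to be set side by side. Skeletal muscle transcripts varied between libraries without following housing: the 24 markers took 0.0924%, 0.413% and 0.0118% of counts in group-housed libraries 1, 2 and 3, and 0.0146%, 0.0126% and 1.16% in single-housed libraries 1, 2 and 3. Group-housed library 2 and single-housed library 3 thus stood apart in muscle content. The fits of Cpt1b, Slc25a20 and Cpt2, the Cpt1b share and some list counts are also given without them. The summed CPT1 level and the counts of genes whose groups do not overlap are given with them only. Group-housed library 1 lay between those 2 libraries and the rest in muscle content, and it stayed in.

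The members of the mitochondrial route that stood higher under single housing were Cpt1b, Slc25a20 and Cpt2, while the single-housed levels of Cpt1a, the liver form of the first enzyme, overlapped the group-housed ones. In edgeR's quasi-likelihood test with Benjamini-Hochberg adjustment over 18085 genes, 0 of the 8 members passed an adjusted p below 0.05, as did 0 genes in all (0.0%). At an unadjusted p below 0.05, 3 members were higher under single housing (Cpt1b, Slc25a20 and Cpt2) and none was lower, while 3.49% of all genes were higher at that level. The 3 libraries of one housing lay wholly apart from the 3 of the other for 4 of 8 members, against 13.9% of all genes tested. Single housing was the higher group for Cpt1b, Slc25a20 and Cpt2, against 4.86% of all genes, and the lower group for Cpt1c. On log2 CPM (counts scaled to library size with TMM factors), a scale added after seeing the data, Cpt1c overlapped and only Cpt1b, Slc25a20 and Cpt2 stood apart, against 13.4% of all genes. The scaling also set the split over all genes, with 879 higher and 1630 lower in FPKM and 1196 higher and 1226 lower in log2 CPM. The median log2 difference of the members was 0.34 with 6 of 8 above 0, and that of all genes was -0.01 with 48.06% above 0. In bulk tissue, a change in the number of cells of a type and a change in RNA per cell cannot be told apart.

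**Figure D1:**
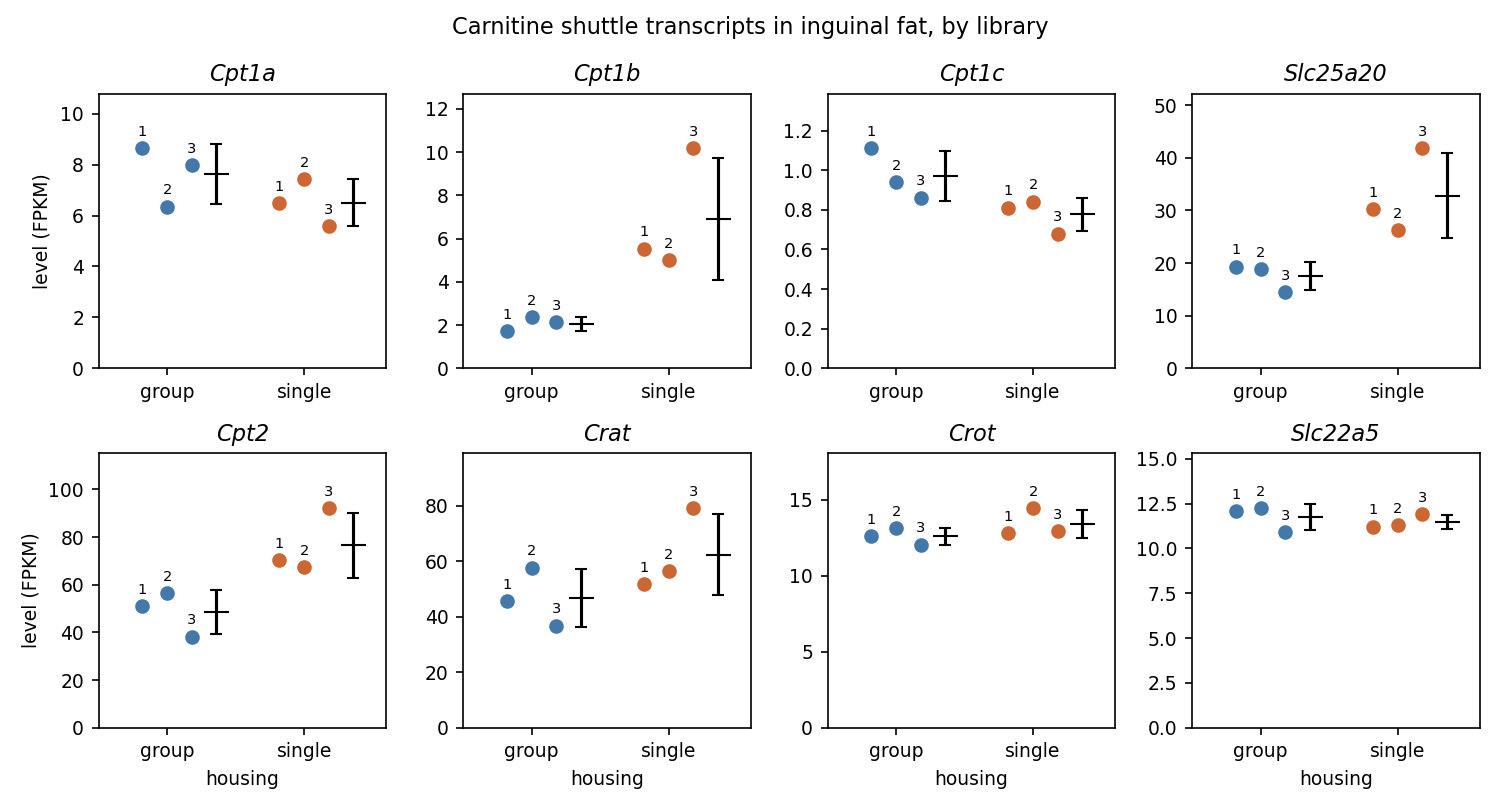
Level of each carnitine shuttle gene in FPKM (vertical axes, each from 0) by housing. Points are single libraries with their replicate number, and bars give the mean and SD of 3 libraries. The single-housed points of Cpt1b, Slc25a20 and Cpt2 all lie above the group-housed points, with single-housed library 3 the highest, and those of Crot and Slc22a5 overlap.

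Cpt1a (ENSMUSG00000024900; mm39 chromosome 19, 3372334 to 3435733, plus strand) was measured at 8.64, 6.35 and 7.97 FPKM in group-housed libraries 1 to 3, and at 6.48, 7.43 and 5.59 FPKM in single-housed libraries 1 to 3. The groups overlapped, since single-housed library 2 lay above group-housed library 2. The log2 difference, single minus group housing, was -0.15 ± 0.13 (SE; 95% interval -0.45 to 0.15; edgeR adjusted p = 0.857).

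Cpt1b (ENSMUSG00000078937; mm39 chromosome 15, 89300608 to 89310066, minus strand), the muscle and brown-fat form, was measured at 1.72, 2.35 and 2.12 FPKM under group housing and at 5.54, 5.0 and 10.2 FPKM under single housing. Every single-housed library exceeded every group-housed one, and single-housed library 3 was far above the rest. The fitted difference was 3.62-fold (95% interval 2.05 to 6.40), a log2 difference of 1.86 ± 0.35 (SE), with an unadjusted p of 0.0010 and an adjusted p of 0.312 in edgeR. It was larger than the log2 difference of 99.84% of the genes tested. The counts behind it were 128, 174 and 243 under group housing and 660, 361 and 850 under single housing.

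Cpt1c (ENSMUSG00000007783; mm39 chromosome 7, 44608796 to 44624275, minus strand), the brain form, was the lowest member, at 1.11, 0.94 and 0.86 FPKM under group housing and 0.81, 0.84 and 0.68 FPKM under single housing. In FPKM the single-housed values all lay just under the group-housed ones, from 95 to 163 counts per library, but in log2 CPM group-housed library 3 (2.16) lay below single-housed libraries 1 and 2 (2.21 and 2.24). The log2 difference was -0.23 ± 0.20 (SE; 95% interval -0.70 to 0.24; edgeR adjusted p = 0.858). Nerve markers were near the floor: the 8 neuron markers summed to 1.62 to 3.06 FPKM under group housing and 1.15 to 2.38 FPKM under single housing, and the part of nerve tissue in the Cpt1c level was not tested.

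Because the 3 CPT1 genes are related, the longest stretches of identical bases between their longest protein-coding transcripts (GENCODE M21, build GRCm38) are shown, in the transcripts' sense and 5′ to 3′, with the identical run in capitals and 12 bases to each side. Cpt1a and Cpt1b share a run of 20 bases:
Cpt1a: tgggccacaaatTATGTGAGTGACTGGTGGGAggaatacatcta
Cpt1b: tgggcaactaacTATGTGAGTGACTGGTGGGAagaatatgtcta
Cpt1b and Cpt1c share a run of 23 bases:
Cpt1b: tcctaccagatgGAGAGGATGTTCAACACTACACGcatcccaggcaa
Cpt1c: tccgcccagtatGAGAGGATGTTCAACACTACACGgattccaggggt
Between Cpt1a and Cpt1c the longest run was 12 bases. The sources used here do not say how reads that match more than 1 gene were counted.

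Per length, Cpt1b made up a larger share of CPT1 transcripts in each single-housed library than in any group-housed one. Its share of the summed FPKM of Cpt1a, Cpt1b and Cpt1c was 15.0%, 24.4% and 19.4% in group-housed libraries 1 to 3 and 43.2%, 37.7% and 61.9% in single-housed libraries 1 to 3. The groups did not overlap, and in single-housed library 3 the muscle form exceeded the liver form, with a Cpt1b to Cpt1a ratio of 1.82 against 0.199 to 0.855 in the other 5 libraries. The means were 19.6% ± 4.69 and 47.6% ± 12.7 (SD, n = 3 each), a difference of 28.0 percentage points with an exact two-sided permutation p = 0.1, the smallest that 3 against 3 allows. Leaving out the muscle-rich libraries, group-housed 2 and single-housed 3, gave a difference of 23.3 points. Group-housed library 1, next in muscle content, stayed in. The summed CPT1 level was 11.47, 9.64 and 10.95 FPKM under group housing and 12.8, 13.3 and 16.4 FPKM under single housing, again without overlap (10.7 ± 0.94 and 14.2 ± 1.97 FPKM, SD; exact two-sided permutation p = 0.1).

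One feature of the annotation bears on the size of that share. Gm44502, a readthrough gene annotated on the same strand, spans all 9459 bases of Cpt1b, and in GENCODE M21 it shares 2744 of the 3372 exonic bases of Cpt1b (81.4%), leaving 628 private to Cpt1b. Gm44502 itself had 0 to 7 counts per library. If reads in the shared exons were discarded, the deposited FPKM would understate Cpt1b by 5.37 times, since its full exon length was used as divisor. With the private length, an alternative added after seeing the data, Cpt1b would be 9.24, 12.6 and 11.4 FPKM under group housing and 29.7, 26.8 and 54.6 FPKM under single housing, above Cpt1a in all 6 libraries. Its share would then be 56.1% ± 7.37 and 82.2% ± 6.81 (SD, n = 3 each), a difference of 26.0 points. The rank of Cpt1b against Cpt1a therefore depends on how shared exons were counted, and its difference between housings, in which the length cancels, does not depend on that divisor.

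**Figure D2:**
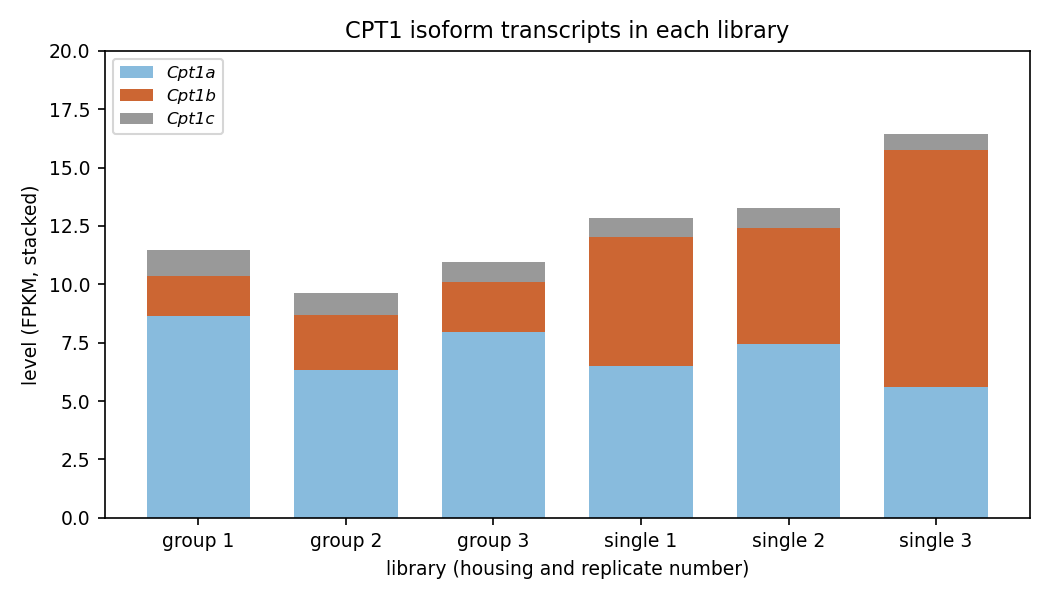
Levels of Cpt1a, Cpt1b and Cpt1c (FPKM, stacked from 0) in each library, with the deposited exon lengths. Cpt1b takes 15.0% to 24.4% of the bar in the group-housed libraries and 37.7% to 61.9% in the single-housed ones.

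Slc25a20 (ENSMUSG00000032602; mm39 chromosome 9, 108539287 to 108561840, plus strand), the carnitine-acylcarnitine translocase of the inner membrane, was measured at 19.3, 18.8 and 14.5 FPKM under group housing and at 30.2, 26.2 and 41.8 FPKM under single housing. No group-housed library reached the lowest single-housed one, and the highest value was again that of single-housed library 3. The fitted difference was 2.0-fold (95% interval 1.31 to 3.05; log2 1.00 ± 0.26, SE), with an unadjusted p of 0.0058 and an adjusted p of 0.482 in edgeR.

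Cpt2 (ENSMUSG00000028607; mm39 chromosome 4, 107761178 to 107780807, minus strand), the enzyme of the matrix side that follows the translocase, was measured at 51.0, 56.4 and 38.2 FPKM under group housing and at 70.3, 67.3 and 92.2 FPKM under single housing. The groups again did not overlap, and group-housed library 3 was the lowest and single-housed library 3 the highest, as for Slc25a20. The fitted difference was 1.68-fold (95% interval 1.12 to 2.51; log2 0.75 ± 0.25, SE; edgeR unadjusted p = 0.0184, adjusted p = 0.620). The ratio of Slc25a20 to Cpt2 FPKM was 0.378, 0.333 and 0.378 under group housing and 0.430, 0.390 and 0.453 under single housing, so the translocase was higher relative to the enzyme in each single-housed library (exact two-sided permutation p = 0.1).

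Across the 6 libraries Slc25a20 and Cpt2 had the closest profiles of any 2 members (Pearson r of log2 CPM 0.98), followed by Cpt2 and Crat (0.95) and Cpt1b and Slc25a20 (0.95), whereas Cpt1a ran against Cpt1b (-0.71). These are descriptions over libraries that share depth, muscle content and housing. The promoters of the closest pair, and of Cpt1a for contrast, are shown from RefSeq (GRCm38.p6), 250 bases before to 50 bases after the start, on the gene's strand and 5′ to 3′. Capitals mark GC boxes (GGGCGG, or CCGCCC where the match is on the other strand) and the CCAAT box.
Slc25a20, chr9:108661886-108662185, plus strand: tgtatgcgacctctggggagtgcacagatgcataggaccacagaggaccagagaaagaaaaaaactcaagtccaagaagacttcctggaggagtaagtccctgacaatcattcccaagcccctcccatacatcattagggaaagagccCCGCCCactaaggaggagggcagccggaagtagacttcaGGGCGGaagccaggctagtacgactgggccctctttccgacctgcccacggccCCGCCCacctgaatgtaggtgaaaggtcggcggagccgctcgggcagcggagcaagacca
Cpt2, chr4:107923540-107923839, minus strand: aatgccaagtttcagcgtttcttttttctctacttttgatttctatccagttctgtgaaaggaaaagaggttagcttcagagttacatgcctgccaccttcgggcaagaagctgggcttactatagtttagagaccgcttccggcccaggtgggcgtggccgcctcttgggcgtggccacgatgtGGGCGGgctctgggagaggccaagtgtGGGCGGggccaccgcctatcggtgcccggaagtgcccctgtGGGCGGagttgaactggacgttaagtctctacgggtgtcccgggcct
Cpt1a, chr19:3323051-3323350, plus strand: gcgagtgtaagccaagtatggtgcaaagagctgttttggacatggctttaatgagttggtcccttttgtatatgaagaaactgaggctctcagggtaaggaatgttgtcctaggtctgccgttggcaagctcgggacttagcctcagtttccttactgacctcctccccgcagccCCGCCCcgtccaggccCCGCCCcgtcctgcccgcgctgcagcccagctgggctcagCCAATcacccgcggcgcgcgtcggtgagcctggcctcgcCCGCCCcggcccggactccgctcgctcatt
Each of the 3 windows held 3 GC boxes, at -102, -63 and -10 from the start in Slc25a20, at -65, -38 and 4 in Cpt2 and at -75, -59 and 21 in Cpt1a. The GC box occurred in 35.7% of 32851 promoter windows of the same length. CCAAT, found in 37.4% of windows, stood at -19 in Cpt1a and was not matched in Slc25a20 or Cpt2.

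Of the 8 members, 6 had a promoter entry, all but Cpt1b and Crat, and each of the 6 held at least 1 GC box. All but that of Cpt1c (47.3%) were richer in G and C than the median window (52.7%), up to 72.7% in Slc22a5. The GC box is made of those letters, so its share over all windows is not a matched background. CCAAT was also matched in Crot and Cpt1c. On either strand, none of the 6 held the PPAR element AGGTCANAGGTCA (0.04% of windows), the estrogen-related receptor element TCAAGGTCA (0.423%) or TATAAA (13.6%). TGACG, the core of the cyclic AMP response element (20.8%), was matched in Slc22a5. A match or its lack describes these letters in these windows only.

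Crat (ENSMUSG00000026853; mm39 chromosome 2, 30290483 to 30305825, minus strand) was measured at 45.6, 57.7 and 36.7 FPKM under group housing and at 51.6, 56.3 and 79.1 FPKM under single housing. The groups overlapped, because group-housed library 2 exceeded single-housed libraries 1 and 2, and it was one of the libraries with much muscle. The log2 difference was 0.51 ± 0.28 (SE; 95% interval -0.16 to 1.18; edgeR adjusted p = 0.796). Without single-housed library 3 it was 0.23. Crat overlaps Dolpp1, on the opposite strand, by 59 bases, and without knowing the use of strand, reads there (Dolpp1 had 368 to 641 counts) cannot be told apart.

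Crot (ENSMUSG00000003623; mm39 chromosome 5, 9016033 to 9047324, minus strand), the peroxisomal enzyme, ranged only from 12.03 to 14.4 FPKM: 12.6, 13.1 and 12.03 under group housing and 12.8, 14.4 and 12.9 under single housing. The groups overlapped, with a log2 difference of 0.17 ± 0.12 (SE; 95% interval -0.11 to 0.45; edgeR adjusted p = 0.837). Slc22a5 (ENSMUSG00000018900; mm39 chromosome 11, 53755368 to 53782486, minus strand), the sodium-dependent carnitine carrier of the plasma membrane, was measured at 12.1, 12.3 and 10.9 FPKM under group housing and at 11.2, 11.3 and 11.9 FPKM under single housing. Its groups overlapped too, with a log2 difference of 0.05 ± 0.14 (SE; 95% interval -0.27 to 0.37; edgeR adjusted p = 0.942), whose sign turned on the log2(FPKM + 1) scale. For both genes the interval leaves out changes of the size fitted for Slc25a20.

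**Figure D3:**
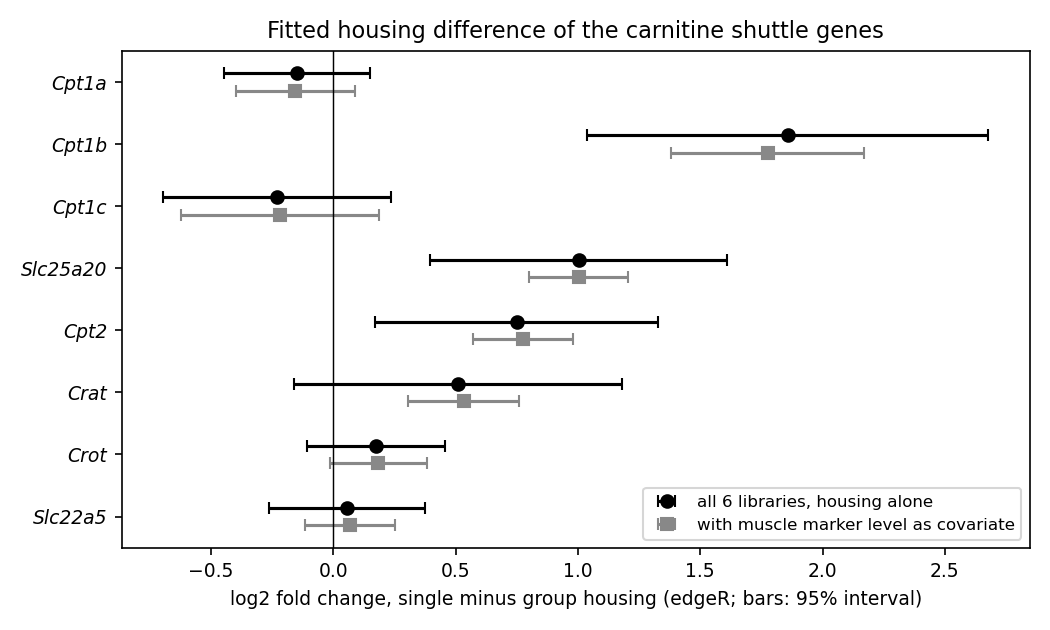
Fitted log2 difference of each member, single minus group housing (edgeR, bars are 95% intervals), from housing alone (black circles) and with the muscle marker level as a covariate (grey squares). Cpt1b, Slc25a20 and Cpt2 have intervals above 0 in both fits and Crat in the second only, while those of Cpt1a, Cpt1c, Crot and Slc22a5 include 0.

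In levels per deposited exon length, the order over the 6 libraries was Cpt2, Crat, Slc25a20, Crot, Slc22a5, Cpt1a, Cpt1b and Cpt1c. Most neighbours kept their order in 6 of 6 libraries, by ratios of 1.71 to 3.07 for Crat over Slc25a20, 1.20 to 3.24 for Slc25a20 over Crot, 1.04 to 1.28 for Crot over Slc22a5, 1.37 to 2.13 for Slc22a5 over Cpt1a, and 1.55 to 15.0 for Cpt1b over Cpt1c. The exceptions were Cpt2 over Crat (5 of 6 libraries, ratios 0.978 to 1.36) and Cpt1a over Cpt1b (5 of 6), so these neighbours were not separated beyond their spread. The place of Cpt1b rests on its deposited exon length: with the private length it would rank 5 or 6 of the 8 in the group-housed libraries and 3 or 4 in the single-housed ones. Summed CPT1 was 9.64 to 16.4 FPKM and Cpt2 38.2 to 92.2 FPKM. With the private length the sum would be 19.0 to 60.9 FPKM, and within each library Cpt2 would still be 1.51 to 2.83 times as high.

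The muscle form was next set beside the muscle content of each library. The mean of the 24 skeletal muscle markers was 3.78, 5.38 and 0.79 log2 CPM in group-housed libraries 1 to 3 and 1.18, 0.94 and 7.21 in single-housed libraries 1 to 3. Acta1, the actin of skeletal muscle fibres, was at 42.8, 234.0 and 2.34 FPKM and at 2.29, 2.49 and 715 FPKM in the same order. Summed over all markers the muscle level was 42.5 to 1557 FPKM under group housing and 49.3 to 4294 FPKM under single housing, and at most 1 of 24 markers was at 0 in a library.

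The 3 libraries of lowest muscle content were group-housed library 3 and single-housed libraries 1 and 2. Among them Cpt1b stood at 2.12 FPKM under group housing and at 5.54 and 5.0 FPKM under single housing. The group-housed side of that comparison is 1 library. It also had the lowest summed white adipocyte level (6855 FPKM) and the highest B cell level (674 FPKM) of the 6 libraries. Group-housed library 2, with 234.0 FPKM of Acta1, had 2.35 FPKM of Cpt1b, below every single-housed library. The relation of Cpt1b to muscle content over the 6 libraries had a Pearson r of 0.32 (exact permutation p = 0.492) and a Spearman rho of 0.37 (exact permutation p = 0.497), and its r was -0.58 once the 2 muscle-rich libraries were left out. Among the libraries then left, group-housed library 1 stood far above the rest in muscle content (3.78 log2 CPM against 0.79 to 1.18). All r values without those 2 libraries therefore rest largely on it.

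Of the 8 relations with muscle content, that of Slc22a5 was the closest, with r 0.93 (exact permutation p = 0.0014, the smallest that 6 libraries allow, Benjamini-Hochberg adjusted 0.0111) and rho 1.0 (exact permutation p = 0.0028, adjusted 0.0222). It was 0.70 without those 2 libraries, and on the log2(FPKM + 1) scale r was 0.82 with an adjusted permutation p of 0.367. Crat had r 0.75 (exact permutation p = 0.0778, adjusted 0.311) and rho 0.77 (exact permutation p = 0.103, adjusted 0.411), but r was 0.0008 without the 2 muscle-rich libraries, so the relation rested on them. The other 6 members had r between -0.36 (Cpt1a) and 0.57 (Cpt2), with adjusted permutation p from 0.511 to 0.660. White adipocyte markers followed a similar order, with means of 10.8, 10.6 and 9.71 log2 CPM in single-housed library 3, group-housed library 2 and group-housed library 3. B cell markers ran the other way, at 6.04, 7.11 and 7.71 log2 CPM in the same libraries. The parts of muscle, fat and lymphocytes in these relations cannot be told apart.

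**Figure D4:**
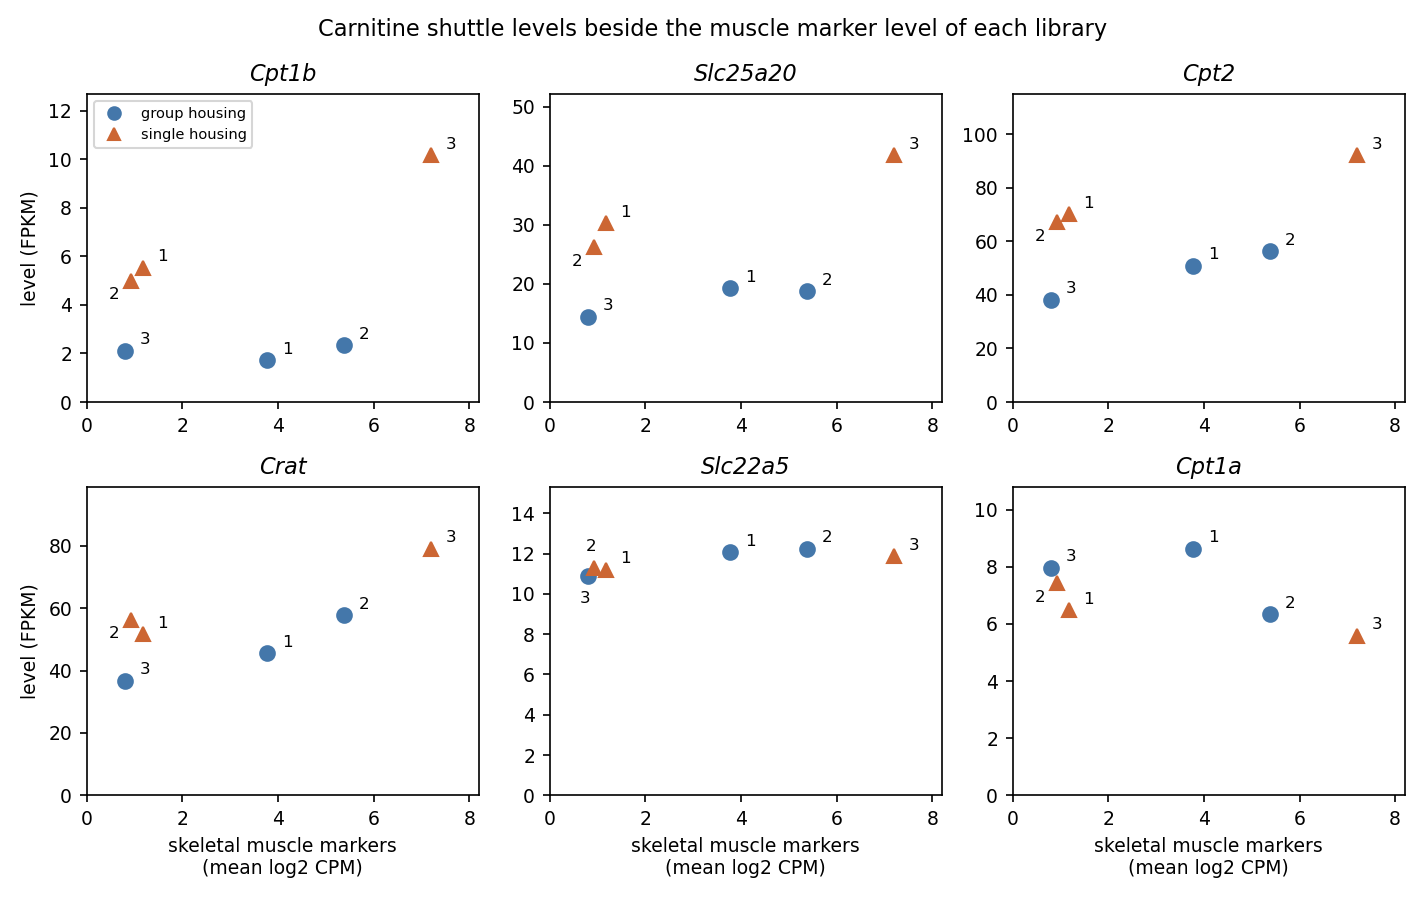
Level of 6 members (FPKM) against the mean log2 CPM of 24 skeletal muscle markers, 1 point per library, circles for group and triangles for single housing, numbered by replicate. At the low muscle levels on the left the single-housed points of Cpt1b, Slc25a20 and Cpt2 lie above group-housed library 3, and single-housed library 3 lies highest at the far right.

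With the muscle marker level as a covariate in edgeR, the log2 differences were nearly the same and their errors smaller, and 4 of the 8 members passed, all higher under single housing, against 3.12% of all genes. They were Cpt1b (1.78, adjusted p = 0.00224), Slc25a20 (1.00, adjusted p = 0.00192), Cpt2 (0.77, adjusted p = 0.00383) and Crat (0.53, adjusted p = 0.0203). Cpt1a stayed at -0.16 (adjusted p = 0.413). Group-housed library 2 and single-housed library 3 were also highest in white adipocyte markers and lowest in B cell markers. The covariate therefore cannot be read as muscle alone. With group-housed library 2 and single-housed library 3 left out, edgeR passed Cpt1b alone among the members (log2 1.53, adjusted p = 0.0410), against 0.0425% of genes higher, and Slc25a20 (0.81, adjusted p = 0.167) and Cpt2 (0.69, adjusted p = 0.190) missed the threshold. The housings were not matched for muscle in that fit, where the muscle markers had a median log2 difference of -2.05.

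The calls also depended on the count test. DESeq2 on the same counts passed 2 members, Cpt1b (adjusted p = 0.000113) and Slc25a20 (adjusted p = 0.0364), against 0.431% of genes higher, but not Cpt2 (adjusted p = 0.216). Without a filter on low counts, edgeR passed Cpt1b (adjusted p = 0.0322), against 0.045% of genes higher.

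Heat-producing (brown and beige) adipocytes are known to use Cpt1b, and their markers also stood higher beside these members. The 14 thermogenic markers summed to 327 to 439 FPKM under group housing and 712 to 1092 FPKM under single housing, 14 of 14 had a log2 difference above 0 (48.06% of all genes) and 9 were higher at an unadjusted p below 0.05 (3.49% of all genes). None passed edgeR's adjusted threshold, while DESeq2 passed 7 and the fit with the muscle covariate 8, all higher (0.431% and 3.12% of all genes). Without the 2 muscle-rich libraries edgeR passed 2 as higher (0.0425% of genes), with a median log2 difference of 0.91. None of the 14 was at 0. Macrophage markers (10) summed to 899 to 1343 FPKM under group housing and 629 to 934 FPKM under single housing, and these sums overlapped. Lyz2 alone was at 426 to 1063 FPKM. The mean log2 CPM of the 10 did not overlap, at 6.35 to 6.41 under group housing and 5.78 to 6.10 under single housing. Of the 10, 1 had a log2 difference above 0 (48.06% of all genes). In edgeR 5 were lower at an unadjusted p below 0.05 (628 of 18085 genes) and none passed the adjusted threshold, while DESeq2 passed 2 as lower (129 of 18085 genes). The fit with the muscle covariate passed 5 as lower (663 of 18085 genes), and the fit without the 2 muscle-rich libraries passed 0. The part of these cell types in the levels of the shuttle genes was not tested. Summed B cell (407 to 674 and 170 to 547 FPKM), T cell (96.3 to 226 and 57.2 to 201 FPKM), Schwann cell (55.9 to 79.6 and 56.4 to 118 FPKM) and epithelial markers (0.96 to 2.01 and 0.77 to 1.91 FPKM) overlapped between group and single housing.

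Acyl groups delivered by the shuttle go on to beta-oxidation, whose genes were read from the same fit. Of 17 genes of mitochondrial beta-oxidation, 17 had a log2 difference above 0 (median 0.55, against 48.06% and -0.01 over all genes), 11 with an unadjusted p below 0.05 in edgeR (3.49% of all genes were higher at that level) and 0 past the adjusted threshold. DESeq2 passed 6 and the fit with the muscle covariate 13, all higher, against 0.431% and 3.12% of all genes. Without the 2 muscle-rich libraries edgeR passed 0 of the 17, with a median log2 difference of 0.52. In 14 of the 17 all single-housed libraries exceeded all group-housed ones in FPKM, against 4.86% of all genes. The 3 of smallest p were Acaa2, the last thiolase step, with a log2 difference of 1.15 ± 0.20, Acadvl, the very-long-chain dehydrogenase, with 0.91 ± 0.21, and Etfdh, which passes the electrons to ubiquinone, with 0.98 ± 0.23 (SE). These differences are close in size to that of Slc25a20.

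Upstream of the shuttle, the 5 acyl-CoA synthetases, which activate fatty acids before CPT1, had a median log2 difference of 0.36, all 5 above 0 (48.06% of all genes), 1 higher at an unadjusted p below 0.05 (3.49% of all genes) and 0 past the adjusted threshold in edgeR. Acsl4 and Acsl6, named here after their values were seen, had differences of 0.002 ± 0.10 and 0.58 ± 1.11 (SE). Acsl6 was near the floor, at 0.0 to 0.21 FPKM. Acsl3 was at 6.18 ± 0.62 FPKM under group and 8.37 ± 1.45 FPKM under single housing, Acsl5 at 26.4 ± 3.21 and 28.7 ± 2.21 FPKM, and Acsl1, the main form of fat, at 178 ± 31.6 and 215 ± 31.2 FPKM (SD, n = 3 each).

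The 11 genes listed for control of CPT1 by malonyl-CoA, its inhibitor, and by AMP-activated kinase all had a log2 difference above 0. Their median was 0.23 (48.06% above 0 and -0.01 over all genes). In edgeR 0 had an unadjusted p below 0.05 in either direction. Acacb, the acetyl-CoA carboxylase whose product acts on CPT1, was at 35.1 ± 9.53 and 52.5 ± 11.8 FPKM, Mlycd, which breaks malonyl-CoA down, at 9.60 ± 1.13 and 12.5 ± 2.39 FPKM, and Prkaa1, a catalytic subunit of AMP-activated kinase, at 19.6 ± 0.49 and 21.6 ± 1.90 FPKM (SD, n = 3 each, group housing first). With the muscle covariate, edgeR passed 3 of the 11, all higher, against 3.12% of all genes. They were Acacb (adjusted p = 0.0359), Mlycd (0.0122) and Prkaa2 (0.0109), the last named here after its values were seen. Prkaa1 did not pass (adjusted p = 0.145). Without the 2 muscle-rich libraries edgeR passed 0 of the 11. The log2 differences from housing alone were 0.67 ± 0.29 for Acacb and 0.48 ± 0.22 for Mlycd (SE). Acaca, the other acetyl-CoA carboxylase, named here after its values were seen, was more abundant, at 104.5 ± 4.90 and 103.7 ± 16.2 FPKM (SD, n = 3 each), with a log2 difference of 0.08 ± 0.19 (SE).

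Of 12 transcription factors and coactivators known to act on shuttle genes, 11 were tested and 10 had a log2 difference above 0 (median 0.42, against 48.06% and -0.01 over all genes). In edgeR 4 were higher at an unadjusted p below 0.05 (3.49% of all genes) and 0 passed the adjusted threshold, while DESeq2 passed 2 (0.431% of all genes) and the fit with the muscle covariate 4 (3.12%), all higher. Without the 2 muscle-rich libraries edgeR passed 0 of the 11, with a median log2 difference of 0.34. Esrrg, an estrogen-related receptor, was at 0.60, 0.57 and 0.62 FPKM under group housing and at 1.52, 1.24 and 0.82 FPKM under single housing (log2 1.08 ± 0.23, SE; DESeq2 adjusted p = 0.00352). Ppara, the nuclear receptor of fatty acid oxidation, was at 1.83, 2.62 and 2.17 FPKM and at 4.60, 3.29 and 6.46 FPKM (log2 1.22 ± 0.32, SE; DESeq2 adjusted p = 0.0311). For both the groups did not overlap, though only Ppara shared with Cpt1b its highest value in single-housed library 3. Esrra was at 10.4 ± 1.0 and 13.2 ± 0.70 FPKM (SD, n = 3 each).

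**Figure D5:**
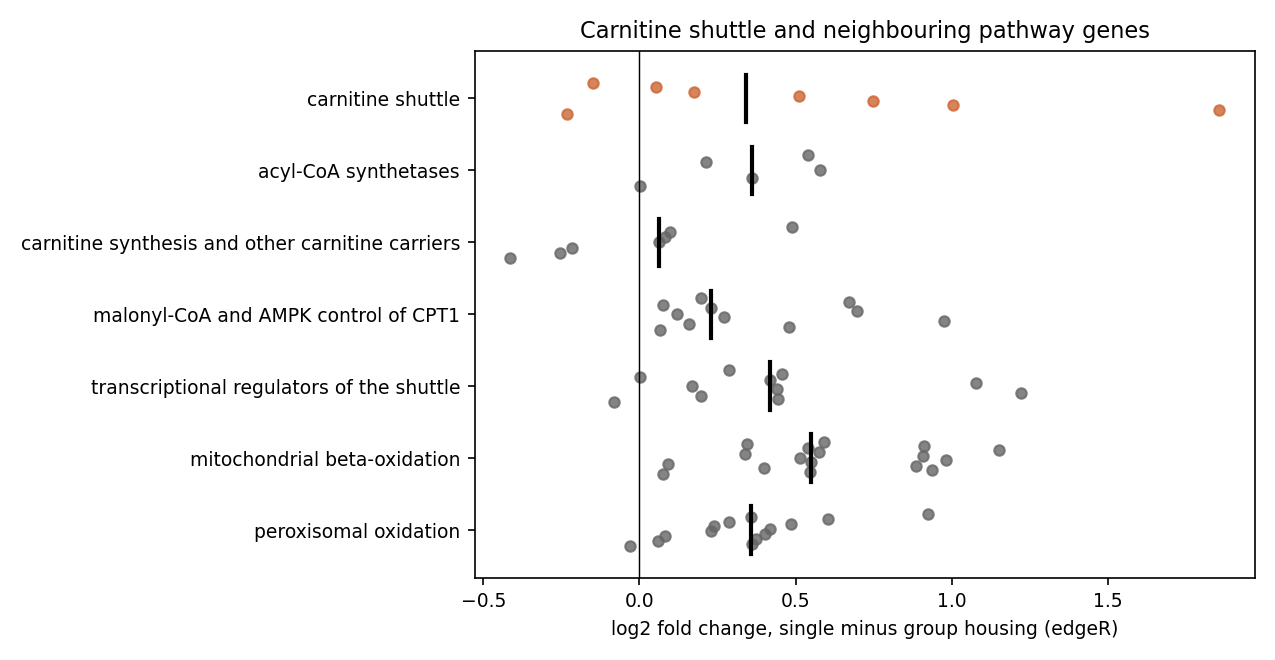
Log2 difference, single minus group housing (edgeR, horizontal axis), of each gene tested in the carnitine shuttle and in 6 neighbouring lists, with a black bar at each list's median. The shuttle has the widest spread of these lists, from -0.23 (Cpt1c) to 1.86 (Cpt1b), and mitochondrial beta-oxidation has the highest median, 0.55.

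Among 7707 genes with a mean of at least 5 FPKM, the profiles most like that of Cpt1b over the 6 libraries were those of Lrpprc (r 0.997), Tsnax (0.994) and Brap (0.992), whose log2 differences were 0.40, 0.12 and 0.20. For Slc25a20 they were Samm50 (0.997), Ndufs1 (0.997) and Idh3b (0.996), and for Cpt2 Ndufa10 (0.998), Cyp4v3 (0.996) and Immt (0.996). For Cpt1a they were Gtf2h2 (0.994), Tnks2 (0.991) and Aspscr1 (0.984). Samm50 and Immt belong to the mitochondrial membrane machinery, Ndufs1 and Ndufa10 to respiratory complex I, and Idh3b to the citric acid cycle. With 6 libraries, high r values arise for many genes, and they describe likeness of profile only.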

How the data were processed

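The deposited table gives raw counts and FPKM for the 6 libraries with gene identifiers, symbols and coordinates. The counts are whole-number reads per gene, not normalized by the authors, per the file headers. The deposited FPKM equal the count divided by exonic length and library total within 0.0051 in 100% of values. The submitters' processing notes name mm39. The sources used here do not give the aligner, the counter, the annotation release or the use of strand. Per the labels' protocols, RNA was extracted with TRIzol from frozen tissue and treated with DNase I. A further 24 columns of per-sample values match no sample here and were not used, and 2639 rows have no symbol but stayed in the test.

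Counts were tested with edgeR 4.0.16 in R 4.3.3 (filterByExpr, TMM, quasi-likelihood F test, two-sided, Benjamini-Hochberg over 18085 genes, threshold 0.05). Standard errors are the absolute log2 difference over the square root of F. CPM values took a prior count of 2. Alternatives used DESeq2 1.42.0 and limma 3.58.1 on log2(FPKM + 1) and log2(FPKM + 0.1), other size factors, no filter, a replicate block, the muscle covariate and libraries left out. Isoform shares and correlations were tested by exact permutation over libraries. The edgeR, DESeq2 and limma fits of housing alone were also run on simulated counts, with the same dispersion for every gene and no difference in muscle content. The muscle covariate, the replicate block and the fits with libraries left out were not run on simulated counts. Library totals ranged from 21410779 to 35318376 counts.

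The members and lists were chosen with earlier results of these data known, as was the muscle covariate. All 8 members are named. Each pathway list is counted whole and its 3 genes of smallest p are named, apart from 1 gene not reported here, as are the 3 genes most like Cpt1a, Cpt1b, Slc25a20 and Cpt2. Transcript runs came from GENCODE M21 and promoters from RefSeq, both on GRCm38, while gene positions are those of the table on mm39.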

Additional observations from a re-analysis of the deposited data

How the results depend on the processing

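Over 14 alternatives the log2 difference stayed above 0 for Cpt1b (1.32 to 2.07), Slc25a20 (0.71 to 1.17), Cpt2 (0.52 to 0.92), Crat (0.23 to 0.75) and Crot (0.08 to 0.25), and below 0 for Cpt1a (-0.23 to -0.05) and Cpt1c (-0.34 to -0.13). For Cpt2 the 95% interval included 0 without group-housed library 3 (-0.013 to 1.17) and with the replicate block (-0.05 to 1.55). Calls did depend on the test. Against 0 genes and 0 members in the main test, DESeq2 called 207 genes and 2 members (Cpt1b 1.87 and Slc25a20 1.01), edgeR without the filter 53 genes and 1 member (Cpt1b 1.85), the muscle covariate 1228 genes and 4 members (Cpt1b 1.78, Slc25a20 1.00, Cpt2 0.77, Crat 0.53), and the fit that leaves out the 2 muscle-rich libraries called 22 genes and 1 member (Cpt1b 1.53). The cause was not tested. Slc22a5 turned to -0.031 and -0.034 in the limma fits with pseudocounts 1 and 0.1, and lay between -0.034 and 0.13 with 1 library left out. On log2(FPKM + 1), where the median of all genes was -0.06, the relation with muscle content turned sign for Cpt1c (r -0.19) and Crot (r -0.054), and that of Slc22a5 lost its call (r 0.82). Same-numbered libraries did not deviate together (r 0.12, -0.56 and -0.70). The highest r, 0.72, was between group-housed library 2 and single-housed library 3, the muscle-rich ones. Deviations that carry muscle content cannot decide whether the numbers pair the mice. With the replicate block, edgeR called 0 genes and 0 members, with log2 differences of 1.77 for Cpt1b, 0.97 for Slc25a20 and 0.75 for Cpt2. The difference in the Cpt1b share was 19.9 points on raw counts and 20.9 to 32.9 points with 1 library left out. Depth limits Cpt1c most, at 95 to 163 counts per library.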

Other observations

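Genes that make carnitine or carry it by other routes had differences in both directions. Of 10 such genes, 7 were tested and 4 had a log2 difference above 0 (median 0.06, against 48.06% and -0.01 over all genes). In edgeR 1 was higher (3.49% of all genes) and 0 were lower at an unadjusted p below 0.05, and 0 passed the adjusted threshold. Aldh9a1, an aldehyde dehydrogenase of the carnitine synthesis route, was at 21.3, 21.8 and 19.6 FPKM under group housing and at 25.8, 26.9 and 29.8 FPKM under single housing (log2 0.49 ± 0.15, SE). Slc25a29, a mitochondrial carrier of basic amino acids that is related to the translocase, ran the other way, at 1.83 ± 0.22 and 1.28 ± 0.19 FPKM (SD, n = 3 each; log2 -0.41 ± 0.21, SE). Shmt2, the mitochondrial serine hydroxymethyltransferase, was at 10.6 ± 1.96 and 8.61 ± 1.71 FPKM.

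Of 14 genes of the peroxisomal route beside Crot, 13 had a log2 difference above 0 (median 0.36, against 48.06% and -0.01 over all genes). In edgeR 2 were higher (3.49% of all genes) and 0 lower at an unadjusted p below 0.05, and 0 passed the adjusted threshold. Abcd3, a peroxisomal transporter of acyl-CoA, was at 21.3, 21.2 and 17.7 FPKM under group housing and at 27.0, 25.0 and 33.7 FPKM under single housing (log2 0.60 ± 0.20, SE), without overlap. Ehhadh, the bifunctional enzyme, was at 17.3 ± 4.18 and 30.3 ± 15.9 FPKM, where single-housed library 3 alone reached 48.7 FPKM (SD, n = 3 each).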
